A study of Homo sapiens with 9 samples.

Results

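Expression of 10 genes known as direct targets of the transcription factor p53 was followed in A549, an established epithelial lung adenocarcinoma line, after 96 h with apoptotic extracellular vesicles or with phosphate-buffered saline. The genes were CDKN1A, BTG2, MDM2, FAS, TNFRSF10B, BBC3, TP53INP1, SESN1, FDXR and GDF15, found by Ensembl gene ID among the 62257 gene rows of the deposited tables, and all 10 were among the 16947 genes that passed the filter on low counts. Apoptotic vesicles are membrane-bound particles shed by dying cells. For the STS_apoEV group apoptosis had been triggered with staurosporine, which inhibits many protein kinases, and for the DDP_apoEV group with cisplatin, a DNA-damaging platinum compound. The control group received saline. All groups were the same line, with no genetic change named in the labels, and each held 3 libraries, 9 in all. The labels give neither the cells that shed the vesicles nor the vesicle dose, no group received either drug alone, and any drug carried over with the vesicles was not measured. Separate cultures for the libraries of a group are not stated, and the p-values therefore reflect spread among samples that may be technical only.

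The p53 protein binds DNA as a tetramer at a pair of similar 10-base sequences, called decamers here, and switches on nearby genes after DNA damage and other stress. It is controlled mainly by protein stability: MDM2, itself a p53 target, marks p53 for degradation and so closes a feedback loop. A549 cells are known to lack the CDKN2A locus, which encodes ARF, an inhibitor of MDM2. The 10 genes cover the main branches of the response, which are arrest of the cell cycle (CDKN1A, BTG2), feedback (MDM2), death (BBC3, FAS, TNFRSF10B), stress and redox control (TP53INP1, SESN1, FDXR) and secretion (GDF15). Only RNA was measured, so p53 protein, its modifications and its binding to DNA are not seen in these values.

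Libraries held 13799950 to 14816996 counts in STS_apoEV, 15949255 to 16526399 counts in DDP_apoEV and 14356195 to 15492993 counts in control. CDKN2A had 0 counts in all 9 libraries. So did ATP5IF1, a gene that most cells use, and a 0 therefore does not by itself show lack of expression. All 8 epithelial marker genes were expressed, with a summed level of 15200 to 16200 CPM (counts scaled by library size) in STS_apoEV, 12600 to 12900 CPM in DDP_apoEV and 19400 to 20400 CPM in control. The 8 leukocyte markers summed to 20.4 to 25.6 CPM in STS_apoEV, 14 to 15.6 CPM in DDP_apoEV and 11 to 16.6 CPM in control; MS4A1 was at 0 and PTPRC had at most 3 counts in a library. The 8 fibroblast and endothelial markers summed to 5.6 to 8.17 CPM, 3.03 to 3.76 CPM and 3.97 to 4.97 CPM in the same order of groups. Of these lists, 2 epithelial markers rose and 6 fell with STS_apoEV, and 5 fell with DDP_apoEV, where 32.8% and 15.5% of all genes were called. Of the 8 leukocyte markers only 2, CD14 and ITGAM, were tested, and both rose with STS_apoEV. Of 3 tested fibroblast and endothelial markers, PECAM1 rose with STS_apoEV and 2 did not pass. The median log2 fold change of those 3 with STS_apoEV was −0.00785, the lowest −0.464 and the highest, that of PECAM1, 3.92. The part of these shifts in the values of the p53 targets was not tested.

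The windows around the annotated starts show where some of the 10 genes carry p53-type sequence close to a start. Windows of TNFRSF10B and TP53INP1 were left out of this search by choice, so the shares below do not cover these genes. For 8 of the 10 genes RefSeq windows on GRCh38.p14 were used, each 300 bases long with 250 bases before the start and 50 after it. They were searched on both strands for the p53 decamer (3 purines, C, 2 bases that are A or T, G, 3 pyrimidines) and for a pair of decamers at most 13 bases apart with at most 2 mismatches over the pair. The 8 genes had 16 windows, while all 27305 genes with a window had 35116, so more windows per gene were searched among the 8. An exact decamer lay in a window of SESN1, FAS and FDXR, that is 3 of the 8 genes, while 8.06% of all genes with a window had one. By window the shares were 18.8% and 6.63%. A pair lay in a window of FAS, MDM2 and FDXR, again 3 of 8, against 3.62% of all genes. By window the shares were 25.0% and 2.93%, with the same MDM2 pair counted in 2 overlapping windows. In the wider list of further p53 targets used below, 84 genes had windows. Of these, 14.3% had an exact decamer and 9.52% a pair, or 9.45% and 6.3% by window, so the shares of the 8 do not stand for p53 targets in general. A pair can contain an exact decamer, as in FAS and FDXR. The windows of CDKN1A, BTG2, BBC3 and GDF15 held neither, which says only that these letters are not in those 300 bases. MDM2 and FAS are printed whole because both genes changed with STS_apoEV, and FDXR and SESN1 are printed in short because they hold a match and did not pass the test in any comparison. Capitals mark the matched bases.
MDM2, chr12:68808767-68809066, plus strand: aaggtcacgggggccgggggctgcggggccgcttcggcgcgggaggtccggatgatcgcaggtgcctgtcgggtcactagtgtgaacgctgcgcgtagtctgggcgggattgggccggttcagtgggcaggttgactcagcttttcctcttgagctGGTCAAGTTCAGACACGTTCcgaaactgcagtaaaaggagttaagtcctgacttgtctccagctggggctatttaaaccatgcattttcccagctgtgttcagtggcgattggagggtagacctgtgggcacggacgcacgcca
FAS, chr10:88991181-88991480, plus strand: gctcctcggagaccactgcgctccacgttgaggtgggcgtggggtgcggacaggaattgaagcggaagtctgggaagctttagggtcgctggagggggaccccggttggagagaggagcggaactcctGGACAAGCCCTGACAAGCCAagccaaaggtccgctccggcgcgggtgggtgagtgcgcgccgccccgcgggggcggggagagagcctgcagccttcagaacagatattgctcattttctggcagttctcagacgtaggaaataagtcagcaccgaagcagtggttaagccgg
FDXR, chr17:74872966-74873055, minus strand: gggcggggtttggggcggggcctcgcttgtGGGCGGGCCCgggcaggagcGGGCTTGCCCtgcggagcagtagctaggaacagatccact
SESN1, chr6:109008998-109009067, minus strand: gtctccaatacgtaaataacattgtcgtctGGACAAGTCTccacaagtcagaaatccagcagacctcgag

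In MDM2 the pair began 94 bases before this start, or 101 bases before another annotated start nearby, with no bases between the decamers. In FAS the pair in capitals began 122 bases before the start, also without a spacer, and a second pair from the same base, with a spacer of 5 and again 2 mismatches, overlapped it. In FDXR the decamers were 10 bases apart and ended 2 bases before the start. Only the exact decamer of SESN1 is in capitals, 49 bases before the start. No binding was measured, so a match is a description of sequence and not of a used site.

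**Figure D1:**
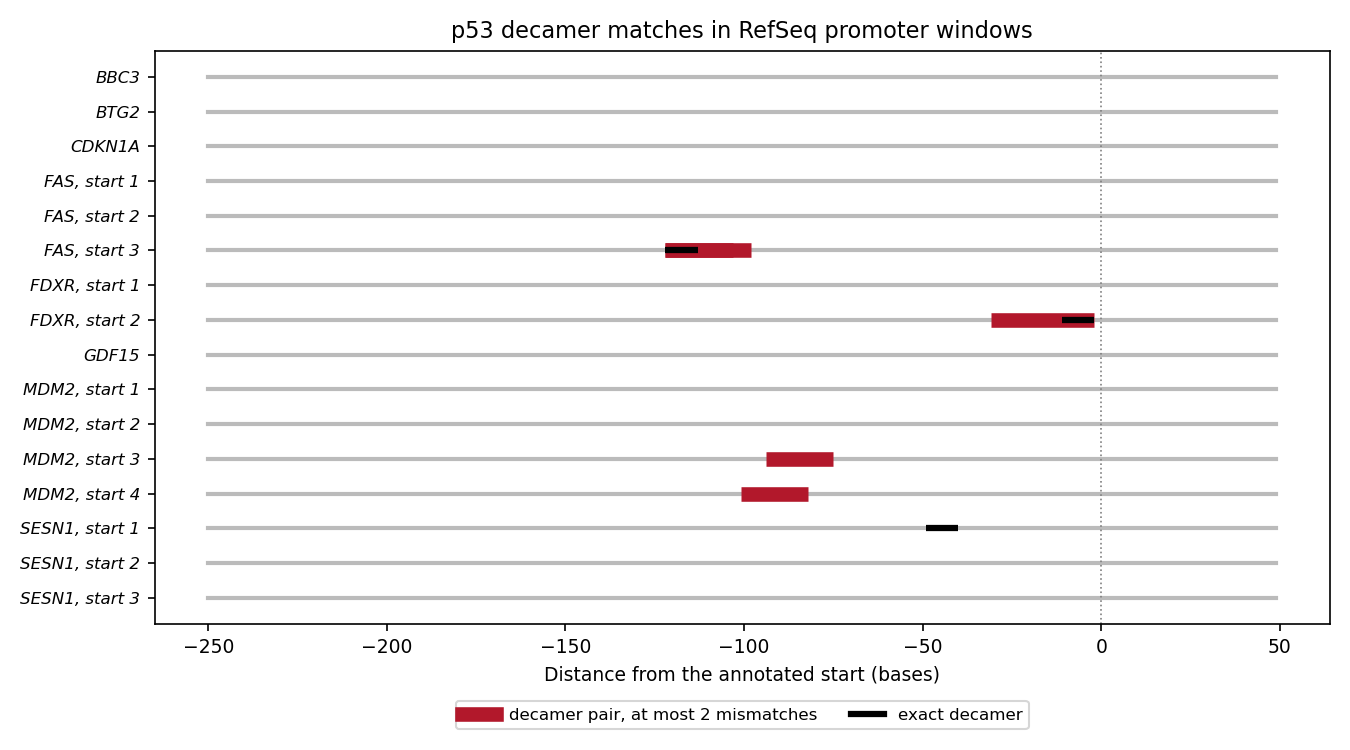
Matches to the p53 decamer in the RefSeq windows of 8 p53 target genes, by distance in bases from the annotated start, with 1 grey line per window, red for a decamer pair and black for an exact decamer. Matches lie in windows of FAS, FDXR, MDM2 and SESN1.

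With STS_apoEV, 7 of the 10 genes rose against control and 3 did not pass the test, and the median log2 fold change was 0.38 against 0.01 over all genes tested. The largest rise was that of BBC3. Of all genes tested, 32.8% were called in that comparison, 15.9% higher, where called means an adjusted p under 0.05 in edgeR's quasi-likelihood test with Benjamini-Hochberg adjustment over all genes. Of the 10, 0 fell, and 0 did so at an unadjusted p under 0.05, by DESeq2 or by limma. With DDP_apoEV, 4 fell, 1 rose and 5 did not pass, beside 15.5% of all genes called, 8.32% lower and 7.16% higher, and the median of the 10 was −0.12. Both comparisons use the same 3 control libraries.

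Set directly against DDP_apoEV, STS_apoEV had 6 of the 10 genes higher, 0 lower and 4 not passing, beside 39.7% of all genes called, 20.2% higher. Here too 0 were lower at an unadjusted p under 0.05, by DESeq2 or by limma. The median of the 10 was 0.52, against 0.03 over all genes. Libraries did not overlap between the groups for 7 of the 10 genes in STS_apoEV against control, for 6 in DDP_apoEV against control and for 7 between the vesicle types, where the shares over all genes were 43.3%, 32.2% and 47.5%. CDKN1A, TP53INP1 and GDF15 were lower than control with DDP_apoEV and higher with STS_apoEV. TNFRSF10B was higher with both. As in any bulk sample, fewer cells expressing a gene and less RNA per cell cannot be told apart.

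**Figure D2:**
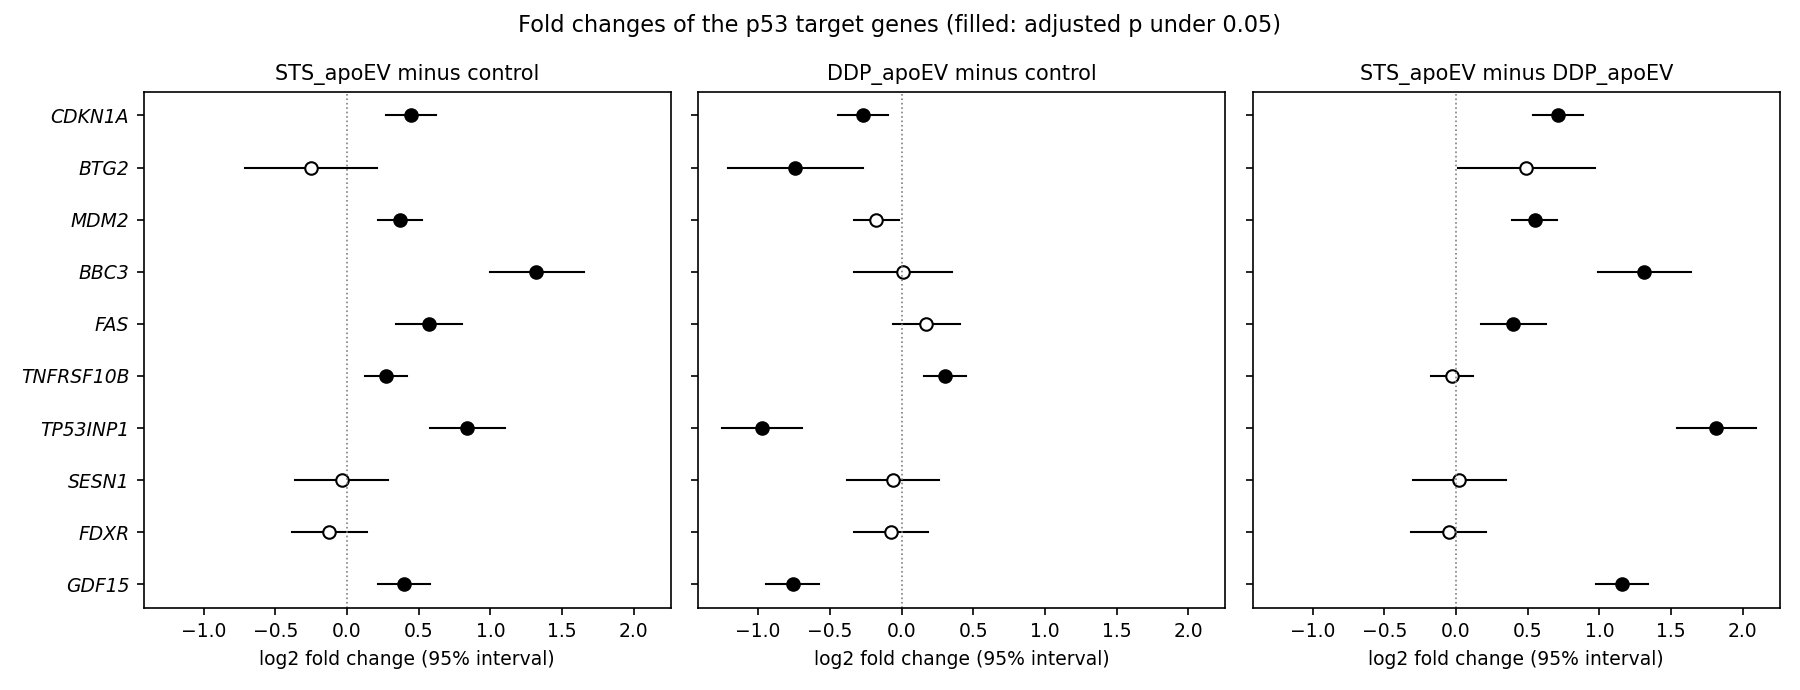
Fitted log2 fold change of each of the 10 genes with its 95% interval (bars), for STS_apoEV against control, DDP_apoEV against control and STS_apoEV against DDP_apoEV, with filled points at an adjusted p under 0.05. In the STS_apoEV panel 7 points are filled, all above 0, and in the DDP_apoEV panel 5 are filled, 4 of them below 0.

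CDKN1A (ENSG00000124762, chromosome 6 at 36676460 to 36687337, plus strand, as deposited on hg38) encodes p21, the inhibitor of cyclin-dependent kinases through which p53 halts the cell cycle. Its level was 83.8, 93.8 and 89.1 CPM in the STS_apoEV libraries, 50.1, 61.8 and 50.9 CPM in DDP_apoEV and 66.4, 62.8 and 66.9 CPM in control. All STS_apoEV libraries lay above, and all DDP_apoEV libraries below, the 3 control libraries, although DDP_apoEV replicate 2 came within about 1 CPM of the lowest control. CDKN1A rose 1.36-fold with STS_apoEV (log2 fold change 0.44, SE 0.0853, adjusted p = 0.000107). It was 1.20-fold lower with DDP_apoEV (−0.27, SE 0.0865, adjusted p = 0.0305) and 1.64-fold higher in STS_apoEV than in DDP_apoEV (0.71, SE 0.0858, adjusted p = 3.83e-08). The fall with DDP_apoEV missed the threshold on leaving out DDP_apoEV replicate 1 (adjusted p = 0.178) or 3 (0.14), or control replicate 1 (0.0945) or 3 (0.101), and held in 8 of 15 alternatives, with adjusted p from 0.00518 to 0.237. DINOL, the p53-induced non-coding RNA next to it on the other strand, had at most 5 counts in a library and was not tested.

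BTG2 (ENSG00000159388, chromosome 1 at 203305491 to 203309602, plus strand) is an antiproliferative gene that promotes shortening of mRNA tails. Its level was low, at 4.21, 3.78 and 4.998 CPM in STS_apoEV, 2.75, 2.86 and 3.62 CPM in DDP_apoEV and 5.73, 4.51 and 5.21 CPM in control. The DDP_apoEV libraries lay below all others, and those of STS_apoEV and control overlapped. BTG2 was 1.67-fold lower with DDP_apoEV (log2 fold change −0.74, SE 0.232, adjusted p = 0.0249). It no longer passed on leaving out DDP_apoEV replicate 1 (adjusted p = 0.0998) or 2 (0.0771), or control replicate 1 (0.105) or 3 (0.0651), and held in 9 of 15 alternatives, with adjusted p from 0.0216 to 0.105. With STS_apoEV the log2 fold change was −0.25, with a 95% interval from −0.71 to 0.21. Between the vesicle types it was 0.49 (adjusted p = 0.0972). With STS_apoEV CDKN1A thus passed upward and BTG2 did not pass, with an SE of 0.227 for BTG2 and 0.0853 for CDKN1A. The changes of these arrest genes were not tested against each other. Each loss of CDKN1A or BTG2 lowers the count of members that fell with DDP_apoEV, which came to 2 on leaving out DDP_apoEV replicate 1, control replicate 1 or control replicate 3.

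MDM2 (ENSG00000135679, chromosome 12 at 68808177 to 68845544, plus strand), the ubiquitin ligase of the feedback loop, has the decamer pair printed above ahead of its internal starts. It had 105, 103 and 99.2 CPM in STS_apoEV, 70.1, 69.7 and 70.2 CPM in DDP_apoEV and 74.6, 82.4 and 80.4 CPM in control. The groups did not overlap in any of the comparisons, and the DDP_apoEV libraries lay within 1 CPM of each other. MDM2 rose 1.29-fold with STS_apoEV (log2 fold change 0.37, SE 0.0761, adjusted p = 0.000247) and was 1.46-fold higher in STS_apoEV than in DDP_apoEV (0.55, SE 0.0763, adjusted p = 5.57e-07). Against control, DDP_apoEV gave −0.18 with a 95% interval from −0.33 to −0.02, and did not pass after adjustment (adjusted p = 0.123). The CPM gene, which encodes carboxypeptidase M and overlaps MDM2 on the opposite strand, had 6.71% of its mean count. Gene counts here do not show which of the MDM2 starts was used.

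BBC3 (ENSG00000105327, chromosome 19 at 47220822 to 47232766, minus strand) encodes PUMA, a BH3-only protein that triggers apoptosis at mitochondria by binding BCL2-family survival proteins. Its level was 16.4, 15.5 and 16.8 CPM in STS_apoEV, 6.50, 6.16 and 6.93 CPM in DDP_apoEV and 8.004, 6.29 and 5.14 CPM in control. The STS_apoEV libraries stood well apart, and those of DDP_apoEV lay inside the range of control. BBC3 rose 2.50-fold with STS_apoEV (log2 fold change 1.32, SE 0.160, adjusted p = 6.02e-08) and was 2.48-fold higher in STS_apoEV than in DDP_apoEV (1.31, SE 0.159, adjusted p = 4.13e-08). With DDP_apoEV its log2 fold change was 0.01, with a 95% interval from −0.33 to 0.35.

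FAS (ENSG00000026103, chromosome 10 at 88953813 to 89029605, plus strand) encodes the receptor for FAS ligand, which starts apoptosis from the cell surface. It had 28.6, 27.2 and 30.3 CPM in STS_apoEV, 20.8, 21.1 and 23.4 CPM in DDP_apoEV and 18.3, 22.7 and 16.9 CPM in control. All STS_apoEV libraries were above all others, and DDP_apoEV overlapped control. FAS rose 1.49-fold with STS_apoEV (log2 fold change 0.57, SE 0.114, adjusted p = 0.000159) and was 1.32-fold higher in STS_apoEV than in DDP_apoEV (0.40, SE 0.112, adjusted p = 0.00457), while DDP_apoEV against control gave 0.17 (adjusted p = 0.353). The deposited FAS row overlaps STAMBPL1, a deubiquitinase gene on the same strand with 294% of the mean count of FAS. STAMBPL1 gave log2 fold changes of 0.49 with STS_apoEV (adjusted p = 2.81e-05), 0.47 with DDP_apoEV (adjusted p = 0.000109) and 0.02 between the vesicle types (adjusted p = 0.905). ACTA2, which overlaps FAS on the opposite strand, had 10.5% of the mean count of FAS. It was higher in STS_apoEV than in DDP_apoEV (log2 fold change 0.85, edgeR adjusted p = 0.0209). Against control it did not pass, at 0.58 with STS_apoEV and −0.27 with DDP_apoEV. The treatment of reads shared by these rows is not given in the sources used, and the FAS values are uncertain to that extent.

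TNFRSF10B (ENSG00000120889, chromosome 8 at 23020133 to 23069031, minus strand) encodes DR5, a death receptor for the ligand TRAIL. Its level was 179.9, 163 and 175 CPM in STS_apoEV, 175, 185 and 168 CPM in DDP_apoEV and 143, 146 and 139.5 CPM in control. Both vesicle groups lay above control and overlapped each other. TNFRSF10B rose 1.21-fold with STS_apoEV (log2 fold change 0.27, SE 0.0724, adjusted p = 0.00338) and 1.23-fold with DDP_apoEV (0.30, SE 0.0723, adjusted p = 0.00322). Between the vesicle types the log2 fold change was −0.03, with a 95% interval from −0.17 to 0.12. It was the only one of the 10 that passed upward with both kinds of vesicle.

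TP53INP1 (ENSG00000164938, chromosome 8 at 94925972 to 94949378, minus strand) encodes a stress protein that acts with p53 in the nucleus and in autophagy. It had 21.5, 20.7 and 22.7 CPM in STS_apoEV, 6.13, 6.22 and 6.10 CPM in DDP_apoEV and 11.6, 11.6 and 13.1 CPM in control. The groups formed separate levels with control between the vesicle types. TP53INP1 rose 1.79-fold with STS_apoEV (log2 fold change 0.84, SE 0.126, adjusted p = 2.85e-06) and was 1.96-fold lower with DDP_apoEV (−0.97, SE 0.138, adjusted p = 2.9e-06). The difference between STS_apoEV and DDP_apoEV, 3.52-fold (1.81, SE 0.134, adjusted p = 1.06e-12), was the largest among the 10 genes. NDUFAF6, a mitochondrial complex I assembly gene on the opposite strand of the same stretch, had 153% of the mean count of TP53INP1 and did not pass in any comparison, with log2 fold changes of 0.09 (STS_apoEV), 0.22 (DDP_apoEV) and −0.12 (between them). The library kit is not stated to keep strand, so reads of the overlap cannot be told apart.

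SESN1 (ENSG00000080546, chromosome 6 at 108984309 to 109094846, minus strand) encodes a sestrin, which restrains mTORC1 signalling under stress. Its level was 9.19, 8.63 and 7.81 CPM in STS_apoEV, 8.31, 8.29 and 8.64 CPM in DDP_apoEV and 9.76, 8.48 and 8.05 CPM in control, and all groups overlapped. The log2 fold changes were −0.04 (95% interval from −0.36 to 0.29) with STS_apoEV and −0.06 (from −0.38 to 0.26) with DDP_apoEV. FDXR (ENSG00000161513, chromosome 17 at 74862497 to 74873031, minus strand), the ferredoxin reductase of mitochondrial electron transfer, had 33.4, 42.2 and 34.5 CPM in STS_apoEV, 40.1, 42.1 and 31.8 CPM in DDP_apoEV and 47.6, 36.0 and 36.2 CPM in control. Its groups overlapped too, and its libraries spread more than those of MDM2. The log2 fold changes of FDXR were −0.12 (95% interval from −0.39 to 0.14) with STS_apoEV and −0.07 (from −0.33 to 0.19) with DDP_apoEV. The intervals give the range of change that these libraries allow for both genes.

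GDF15 (ENSG00000130513, chromosome 19 at 18374731 to 18389176, plus strand) encodes a secreted stress cytokine of the TGF-beta family. It had 200.2, 201 and 179 CPM in STS_apoEV, 95.4, 89.0 and 75.6 CPM in DDP_apoEV and 154.5, 128 and 158 CPM in control. No library of a group reached the range of another group, and DDP_apoEV was the low one. GDF15 rose 1.32-fold with STS_apoEV (log2 fold change 0.40, SE 0.0874, adjusted p = 0.00066) and was 1.69-fold lower with DDP_apoEV (−0.76, SE 0.0891, adjusted p = 2.53e-07). It was 2.23-fold higher in STS_apoEV than in DDP_apoEV (1.16, SE 0.0891, adjusted p = 1.77e-11). GDF15 is also known as a target of ATF4 and CHOP, the factors of the integrated stress response, whose values follow further on.

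**Figure D3:**
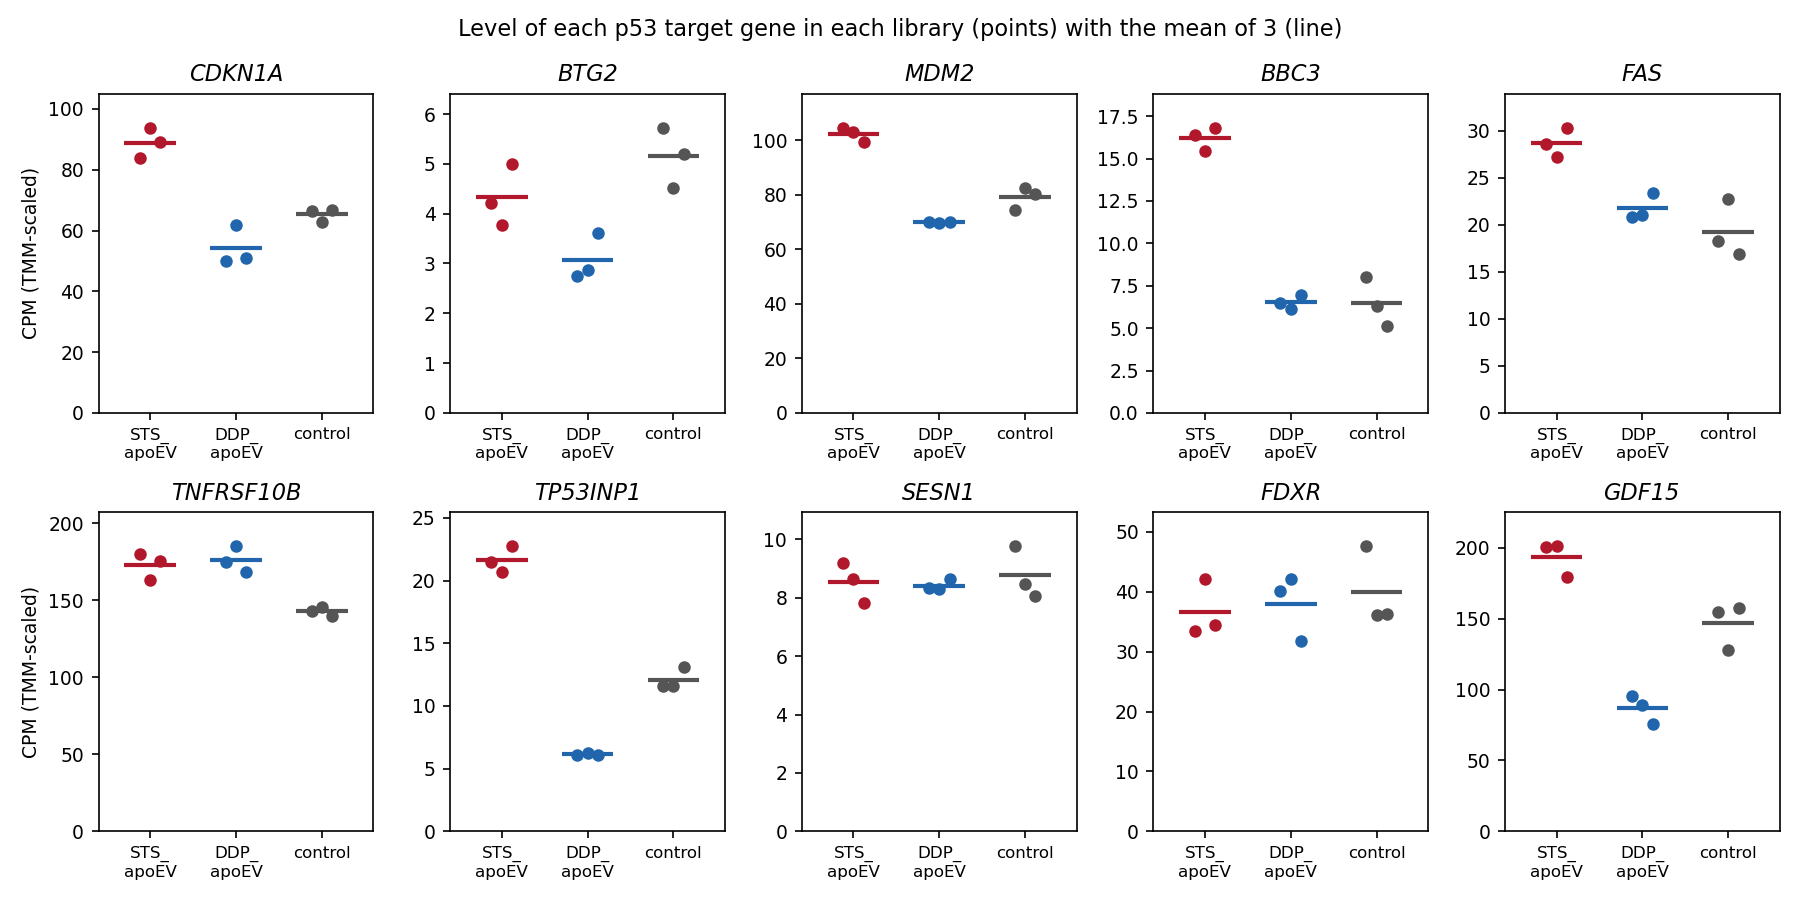
Level of each of the 10 genes in each library, in TMM-scaled CPM on linear axes from 0, with points for libraries and a line for the mean of 3. STS_apoEV is highest for CDKN1A, MDM2, BBC3, FAS, TP53INP1 and GDF15, while DDP_apoEV is lowest for CDKN1A, BTG2, MDM2, TP53INP1 and GDF15.

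Levels between genes were compared per length, as deposited FPKM (fragments scaled by gene length and by library total). GDF15 was the most abundant of the 10 in every group, at 90.8 ± 5.38 FPKM in STS_apoEV, 41.3 ± 4.82 FPKM in DDP_apoEV and 69.6 ± 7.38 FPKM in control (SD, n = 3 each). TNFRSF10B came next, at 33.7 ± 1.72, 35.0 ± 1.71 and 28.2 ± 0.755 FPKM, and then CDKN1A at 29.1 ± 1.69, 18.0 ± 2.19 and 21.6 ± 0.649 FPKM, in the same order of groups. GDF15 and TNFRSF10B lay closest in DDP_apoEV. MDM2 and FDXR held the next places, MDM2 above FDXR in STS_apoEV and below it in DDP_apoEV and control, and in control they differed by less than the SD of FDXR. BBC3 had 4.99 ± 0.231, 2.04 ± 0.119 and 2.02 ± 0.453 FPKM in the same order of groups, and in control TP53INP1, BBC3 and BTG2 lay within the SD of BBC3. TP53INP1 changed its place most, with 3.76 ± 0.194 FPKM in STS_apoEV, 1.08 ± 0.0119 FPKM in DDP_apoEV and 2.12 ± 0.146 FPKM in control. In DDP_apoEV it lay just below SESN1 (1.15 ± 0.0262 FPKM) and differed from BTG2 (1.11 ± 0.170 FPKM) by less than the SD of BTG2. FAS was last in every group, at 1.01 ± 0.0598, 0.781 ± 0.0502 and 0.689 ± 0.112 FPKM, but its deposited gene length of 27753 bases includes the stretch that it shares with its neighbours.

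MDM4, which binds p53 and blocks its activity, did not pass the test in any comparison, at 58.8 ± 2.40, 60.4 ± 4.04 and 62.1 ± 5.13 CPM in STS_apoEV, DDP_apoEV and control. TP73, another member of the p53 family, had at most 12 counts in a library and was not tested.

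TP63, whose protein is a relative of p53 and can bind the same kind of DNA element, gave the largest rise of the 21 tested genes of the p53 family and its regulators. It had 14.5, 12.8 and 12.5 CPM in STS_apoEV, 1.19, 1.58 and 2.29 CPM in DDP_apoEV and 2.54, 2.12 and 3.75 CPM in control. The STS_apoEV libraries were far above all others, and DDP_apoEV overlapped control. TP63 rose 4.74-fold with STS_apoEV (log2 fold change 2.24, SE 0.224, adjusted p = 1.21e-09) and was 7.85-fold higher in STS_apoEV than in DDP_apoEV (2.97, SE 0.237, adjusted p = 5.85e-12). Its level per length in STS_apoEV was 1.74 ± 0.133 FPKM (SD, n = 3). Which isoform of TP63 was made is not seen in gene counts.

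Of those 21 genes, 4 rose and 5 fell with STS_apoEV, 42.9% of them, beside 32.8% of all genes. PML, the scaffold of nuclear bodies in which p53 is modified, rose 2.35-fold to 16.7 ± 2.54 CPM in STS_apoEV, against 7.11 ± 1.57 CPM in control (adjusted p = 2.56e-07). PPP1R13L, which encodes the p53 inhibitor iASPP, was 1.99-fold lower in STS_apoEV (3.84 ± 0.817 CPM) than in control (7.66 ± 1.03 CPM; adjusted p = 0.000398), and the checkpoint kinase gene CHEK1 was 1.42-fold lower (adjusted p = 3.5e-05). With DDP_apoEV 1 of the 21 rose and 2 fell, 14.3% against 15.5% of all genes. HIPK2, a kinase that phosphorylates p53, rose 1.57-fold to 60.9 ± 0.673 CPM in DDP_apoEV, against 38.9 ± 5.42 CPM in control (adjusted p = 7.32e-06). PPM1D, a p53-induced phosphatase that switches the response off, was 1.31-fold lower with DDP_apoEV (adjusted p = 0.0362), but did not pass on leaving out DDP_apoEV replicate 1 (0.134) or 2 (0.0906), or control replicate 1 (0.114) or 3 (0.142). Between the vesicle types 4 were higher in STS_apoEV and 6 lower, 47.6% against 39.7% of all genes. CHEK1 (log2 fold change −0.65) and HIPK2 (−0.68), which had 37.9 ± 4.68 CPM in STS_apoEV, were among the lower ones.

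A wider list of 106 further genes known as p53 targets gave 95 tested genes. Like the other lists, it was compiled from general knowledge, but with earlier results of these data known. With STS_apoEV 32 of the 95 rose and 22 fell, which is 56.8% called against 32.8% of all genes, with a median log2 fold change of 0.05. By direction, 33.7% were higher against 15.9% of all genes, and 23.2% lower against 16.8%. The movement of this list went both ways. Of 17 tested apoptosis genes 6 rose and 4 fell, of 21 in metabolism and redox control 10 rose and 4 fell, and of 29 in signalling and at the cell surface 8 rose and 9 fell. Of 11 arrest genes 4 rose and 2 fell, and of 9 DNA repair genes 1 rose and 3 fell. Of 3 autophagy genes 1 rose, and of 5 non-coding genes 2 rose.

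The largest rise was that of PMAIP1, which encodes the BH3-only protein NOXA. It had 85.8, 96.1 and 101.5 CPM in STS_apoEV, 39.5, 34.0 and 34.6 CPM in DDP_apoEV and 33.1, 32.8 and 33.7 CPM in control, a 2.85-fold rise with STS_apoEV over control (log2 fold change 1.51, SE 0.0881, adjusted p = 5.14e-15). With BBC3 this makes 2 BH3-only targets of p53 that rose with STS_apoEV. SAT1, the polyamine acetyltransferase, rose 2.67-fold to 713 ± 45.7 CPM in STS_apoEV, against 267 ± 31.2 CPM in control. RALGDS, an activator of Ral GTPases, rose 2.58-fold, the antiproliferative gene BTG1, a relative of BTG2, 2.11-fold, the decoy TRAIL receptor gene TNFRSF10D 1.97-fold and the calcium channel gene ORAI3 1.79-fold. The largest falls with STS_apoEV were in THBS1, a matrix glycoprotein that restrains vessel growth, 2.64-fold lower at 7.16 ± 0.320 CPM, against 18.9 ± 1.11 CPM in control. The receptor gene NOTCH1 was 1.86-fold lower, the kinase gene PLK2 1.83-fold, the transcriptional repressor gene E2F7 1.81-fold and the nuclease gene AEN 1.55-fold lower.

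With DDP_apoEV 11 of the 95 further targets rose and 12 fell, 24.2% against 15.5% of all genes, with a median of −0.04. By direction, 11.6% were higher against 7.16% of all genes, and 12.6% lower against 8.32%. TNFRSF10D rose 1.45-fold, the growth arrest gene GADD45A 1.40-fold, the integrin gene ITGA3 and the apoptosis regulator gene TNFAIP8 1.38-fold each, and TNFRSF10A, which encodes the TRAIL receptor DR4, 1.24-fold with DDP_apoEV. Of the genes for the TRAIL death receptors, TNFRSF10A and TNFRSF10B, both passed upward with DDP_apoEV. With STS_apoEV, a comparison added for this gene after its values were seen, TNFRSF10A fell to 31.1 ± 0.411 CPM in STS_apoEV, against 38.1 ± 2.25 CPM in control (SD, n = 3 each), with no overlap (log2 fold change −0.29, edgeR adjusted p = 0.0108). Its log2 fold change between the vesicle types, STS_apoEV over DDP_apoEV, was −0.60 (edgeR adjusted p = 1.19e-06). The stress transcription factor gene ATF3 was 1.84-fold lower with DDP_apoEV, PANK1 of coenzyme A synthesis 1.71-fold, the phosphatase gene DUSP5 1.56-fold, the mTORC1 inhibitor gene DDIT4 1.51-fold, SUSD6 1.41-fold and the semaphorin receptor gene PLXNB2 1.36-fold lower.

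The number of further targets that rose with DDP_apoEV was smaller when single libraries were left out. In place of 11 it was 6 without DDP_apoEV replicate 1, 7 without DDP_apoEV replicate 2, 6 without control replicate 2 and 5 without control replicate 3. Over all genes the number called higher fell too, from 1213 to 811, 869, 846 and 787 in the same order of fits. GADD45A missed the threshold without control replicate 3 (adjusted p = 0.09), and TNFRSF10A without control replicate 3 (0.0855) or DDP_apoEV replicate 3 (0.0515). SUSD6 missed it without control replicate 1 (0.0779), 2 (0.0618) or 3 (0.115) and without DDP_apoEV replicate 1 (0.111) or 2 (0.103).

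Between the vesicle types 38 of the 95 were higher in STS_apoEV and 20 lower, 61.1% against 39.7% of all genes, with a median of 0.16. By direction, 40% were higher against 20.2% of all genes, and 21.1% lower against 19.5%. SAT1 was 3.05-fold, PMAIP1 2.62-fold, ATF3 2.44-fold, BTG1 2.30-fold, ORAI3 2.20-fold and CD82, a membrane tetraspanin, 2.12-fold higher in STS_apoEV. THBS1 was 2.67-fold lower in STS_apoEV than in DDP_apoEV, PLK2 2.01-fold, AEN 1.76-fold, the survival gene BCL2L1, which encodes BCL-XL, 1.68-fold and GADD45A 1.67-fold lower. BCL2L1 had 88.2 ± 6.09 CPM in STS_apoEV and 148 ± 4.74 CPM in DDP_apoEV. BCL-XL is a survival protein that PUMA binds, and its gene moved opposite to BBC3 in this comparison.

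**Figure D4:**
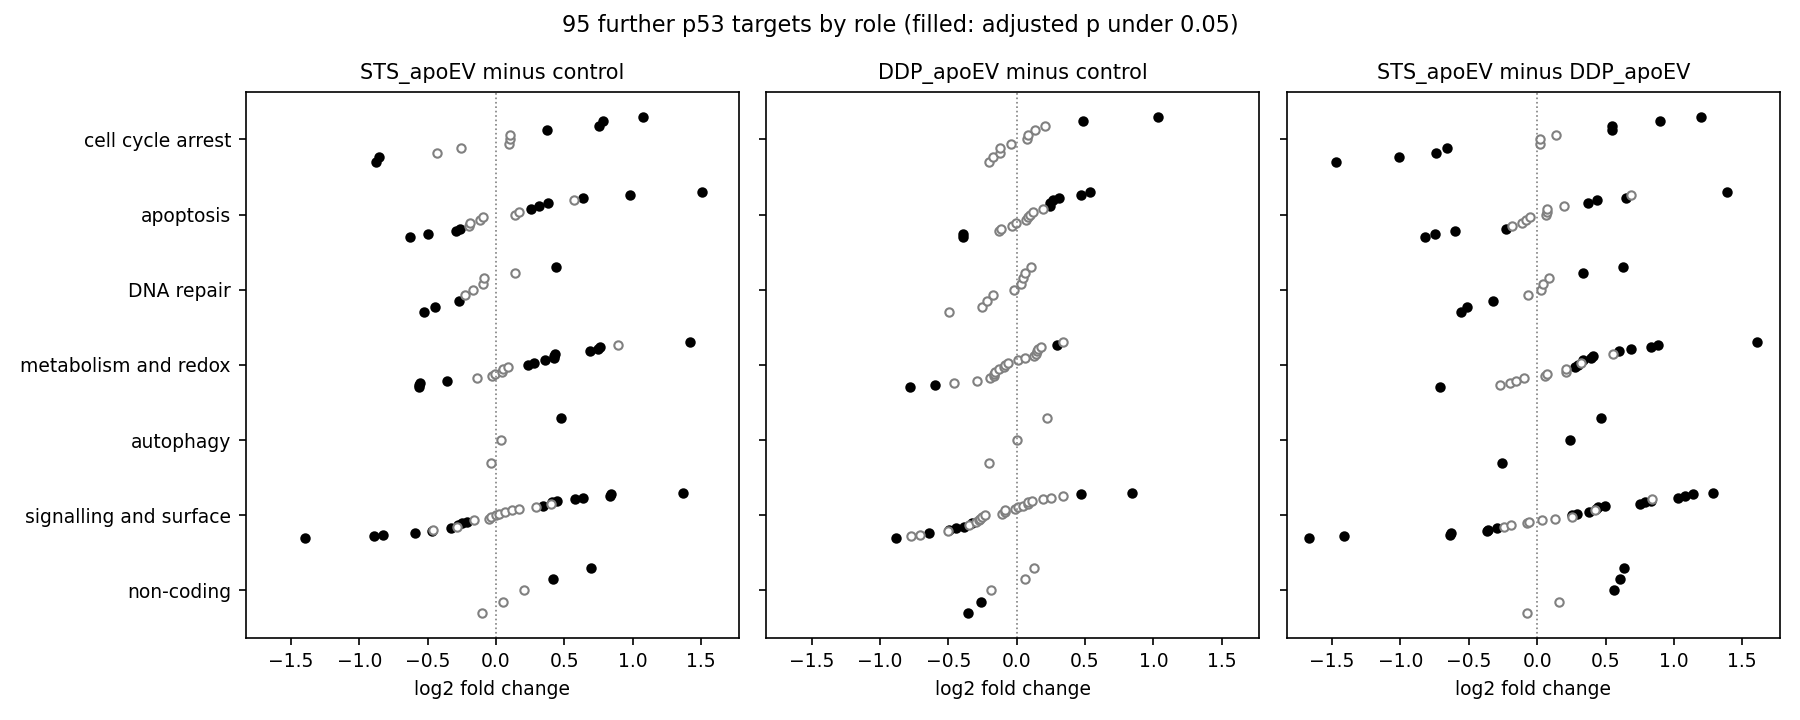
Fitted log2 fold changes of 95 further p53 targets in rows by role, for STS_apoEV against control, DDP_apoEV against control and STS_apoEV against DDP_apoEV, with filled points at an adjusted p under 0.05. Filled points lie on both sides of 0 in each panel, 32 above and 22 below with STS_apoEV and 11 above and 12 below with DDP_apoEV.

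Genes that p53 represses indirectly were also counted. p21 helps to form the DREAM complex, which silences genes of DNA replication and mitosis. Of 29 tested genes of that kind, 25 fell with STS_apoEV, 86.2% against 16.8% of all genes called lower, with a median log2 fold change of −0.51, and all 29 fitted values were below 0. ECT2 of cytokinesis was 1.74-fold lower, at 275 ± 20.5 CPM in STS_apoEV and 479 ± 27.3 CPM in control (adjusted p = 1.34e-10). The transcription factor gene MYBL2 and CDC20, which activates the anaphase-promoting complex, were each 1.73-fold lower (adjusted p = 2.95e-08 and 3.63e-08). With DDP_apoEV the median was −0.07, and 5 of the 29 fell, 2 rose and 22 did not pass, where 8.32% of all genes were lower and 7.16% higher. The 3 of smallest p with DDP_apoEV were KIF20A (1.28-fold lower, adjusted p = 0.0014), CENPF (1.24-fold, 0.00539) and CCNA2 (1.23-fold, 0.00574), and CENPF missed the threshold without control replicate 2 (0.0521). Between the vesicle types 24 of the 29 were lower in STS_apoEV, beside 19.5% of all genes, among them CDC25A (2.87-fold), MCM5 (2.02-fold) and MCM2 (1.99-fold). These genes also follow the share of dividing cells, which was not measured.

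Since ATF4 and CHOP can also raise GDF15, TNFRSF10B and BBC3, 12 genes of the integrated stress response were set beside them, of which 11 were tested. ATF4 did not pass in any comparison, at 243 ± 10.7 CPM in STS_apoEV, 220 ± 8.004 CPM in DDP_apoEV and 222 ± 5.65 CPM in control. DDIT3, which encodes CHOP, had 9.28 ± 0.967 CPM, 6.77 ± 1.52 CPM and 9.31 ± 1.04 CPM in the same order. It was 1.37-fold higher in STS_apoEV than in DDP_apoEV (adjusted p = 0.0396), but did not pass on leaving out STS_apoEV replicate 1 (0.106) or 3 (0.137), or DDP_apoEV replicate 2 (0.262) or 3 (0.0601). TRIB3, a target of ATF4 and CHOP, was 1.31-fold lower with STS_apoEV than in control (adjusted p = 0.0464), which did not hold on leaving out STS_apoEV replicate 1 (0.118), 2 (0.156) or 3 (0.154), or control replicate 1 (0.105) or 2 (0.102). Of the 11 tested genes, 3 rose and 4 fell with STS_apoEV, 63.6% against 32.8% of all genes called, and 2 rose and 9 did not pass with DDP_apoEV, 18.2% against 15.5%. Between the vesicle types 4 were higher in STS_apoEV and 3 lower, 63.6% against 39.7% of all genes. ATF4 and CHOP proteins were not measured.

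Genes with a pattern most like that of CDKN1A were sought among 2656 named genes, those tested that averaged 3 or more log2 CPM and whose group means spanned 0.5 or more on the log2 scale. Likeness was measured over the 9 libraries by the Euclidean distance between log2 CPM values centred on each gene's mean. The nearest were PSAP, the precursor of saposins in lysosomes, at a distance of 0.160, then KIAA1522 (0.206), WASHC2C of an endosomal complex (0.210), DAP (0.211) and the transcriptional repressor gene ETV6 (0.216). The nearest of the other 9 p53 targets was MDM2, at 0.387, with 115 genes closer to CDKN1A. TP53INP1, whose changes were larger, was the farthest at 1.37. This is a description over 9 libraries, chosen among many genes, and carries no test.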

How the data were processed

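Libraries of total RNA were prepared with NEBNext Ultra reagents; the labels' protocols say nothing of strand. Per the submitters' processing notes the tools included featureCounts 1.5.0-p3, StringTie 1.3.3b and HISAT2 2.0.5, with build hg38 and no roles given. The authors deposited whole-number read counts and FPKM values for 62257 gene rows; coordinates are as deposited. Symbols were matched by Ensembl ID. The 705 rows with no annotated gene held 0.313% to 0.357% of the counts.

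The members and all lists were chosen with earlier results of these data known. Groups came from the sample titles. Counts of all 9 libraries were fitted once with edgeR 4.0.16 (R 4.3.3), TMM scaling, its default filter, quasi-likelihood test and no covariates; adjusted p-values are Benjamini-Hochberg over 16947 genes, called under 0.05. The SE is the log2 fold change over the square root of F. CPM uses TMM-scaled totals, marker sums unscaled totals. The biological coefficient of variation was 0.0992. Named further targets were, per comparison, the 6 largest rises and falls among called genes whose mean log2 CPM reached 1 and whose libraries did not overlap. In the p53 family list any called gene could be named, and MDM4, CDKN2A and PPM1D always. Some genes that these rules took are not reported here. ATF4, DDIT3 and TRIB3, and the 3 called DREAM genes of smallest p, were fixed names. The fit was tested on simulated counts. Alternatives were other scaling, no filter, DESeq2 1.42.0, limma 3.58.1 on log2(FPKM + 1 or 0.1), a replicate block, fits of only 2 groups and leaving out single libraries.

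SESN2, TAP1, E2F2 and PANDAR were listed at 0 in all libraries; so was ATP5IF1, a gene that most cells use, so a 0 there does not show lack of expression. TP53COR1 was not matched. Replicates of a group differed by more than sampling noise (chi-square per gene 4.65 to 6.91).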

Additional observations from a re-analysis of the deposited data

How the results depend on the processing

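The 30 log2 fold changes of the 10 genes were recomputed under up to 15 alternatives each, 444 values in all, of which 410 kept their direction and call, 16 lost the call and 18 changed sign. The sign changes, here and in 3 further genes, were in values that had not passed. Between the vesicle types, TNFRSF10B moved to 0.00432 with upper-quartile scaling, and SESN1 to −0.00164 by limma on log2(FPKM + 1), with or without a filter, and to −0.00373 on log2(FPKM + 0.1). With single libraries left out, SESN1 ran from −0.112 to 0.0333 (STS_apoEV), −0.119 to 0.0262 (DDP_apoEV) and −0.0429 to 0.0803 (between vesicle types), and FDXR from −0.238 to 0.00792, −0.152 to 0.0739 and −0.168 to 0.0132 in the same order. TNFRSF10B between the vesicle types ran from −0.0686 to 0.0122, BBC3 with DDP_apoEV from −0.135 to 0.192, MDM4 with DDP_apoEV from −0.0944 to 0.0219 and ATF4 with DDP_apoEV from −0.0352 to 0.0164. DDIT3 with STS_apoEV ran from −0.112 to 0.0719, with 0.0201 under upper-quartile scaling.

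With single libraries left out, the 10 genes gave 7 rises with STS_apoEV, 6 between the vesicle types, and 1 rise and 2 to 4 falls with DDP_apoEV. The further targets that rose with DDP_apoEV numbered 5 to 9 in those fits, 7 with no filter, 6 by limma on log2(FPKM + 1), 7 on log2(FPKM + 0.1), 3 by limma with no filter and 7 with the replicate block. Over all genes 787 to 1028 rose with DDP_apoEV in the former, then 1063, 808, 813, 345 and 1060 in the same order, against 1213 in the main fit. By limma the genes called with DDP_apoEV were 1617 of 12647 tested with a pseudocount of 1, and 1638 of 12647 with 0.1. With no filter they were 787 of 37966, where the main fit called 2623 of 16947. Limma with no filter also gave 2 members and 6 further targets lower with DDP_apoEV, 3312 genes called and 20 further targets higher with STS_apoEV, and 4352 genes called between the vesicle types. These counts are again from 37966 genes tested. The main fit called 5552 of 16947 with STS_apoEV and 6721 between the vesicle types. The calls of GDF15 (adjusted p = 0.0722) and FAS (0.13) with STS_apoEV, and of FAS between the vesicle types (0.284), were lost by limma with no filter. The cause of these shifts was not tested.

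Deviations of libraries with the same replicate number correlated at −0.365 to 0.265, and those with different numbers at −0.213 to 0.241. With 3 libraries per group these values cannot show whether any libraries of different groups shared a batch. With the replicate block SUSD6 missed the threshold with DDP_apoEV (adjusted p = 0.0502), and the calls of the 10 genes were the same. Alternatives for genes other than the 10 were added after their values were seen. Depth limits BTG2 most among the 10, at 44 to 88 counts in a library.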
